A study of Rattus norvegicus with 4 samples.

Results

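Integrins and the proteins of focal adhesions were followed by ribosome footprint counts in cultured rat myocardial cells. The 37 genes were taken by symbol from a named list, and all 37 had a row among the 31038 rows of the count files: 18 code for integrin chains and 19 for cytoplasmic adhesion proteins. The cells received a control siRNA (group siNT, 2 libraries) or an siRNA against eIF3m (group si3m, 2 libraries), a subunit of the translation initiation factor eIF3. They are labelled NRVM, a usual abbreviation for neonatal rat ventricular myocytes, while the protocol text names embryonic myocardium, and this conflict was not resolved. Cells of both groups were grown in serum-containing medium and treated with cycloheximide before lysis, and both the monosome and the polysome fractions were collected. Whether the 2 libraries of a group stem from separate cultures is not stated in the labels, and p-values here reflect the spread between libraries, which may be technical.

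Integrins are heterodimers of an alpha and a beta chain that span the plasma membrane and bind proteins of the extracellular matrix. Their cytoplasmic tails, mostly short, have no enzyme activity. Talins and kindlins bind the beta tail and switch the receptor on, vinculin, alpha-actinin and filamin tie it to actin filaments, and kinases and adaptors such as focal adhesion kinase, Src, paxillin and p130Cas pass the signal on. In the heart, integrins hold myocytes and fibroblasts to the matrix and carry mechanical load. Since every beta1 integrin needs the same beta1 chain, this chain is shared by many alpha chains.

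Total counts were 3924434 and 3835750 in siNT and 8687598 and 6726969 in si3m, so the si3m libraries were deeper. Eif3m, the targeted gene, had 532 and 451 CPM in siNT and 138 and 191 CPM in si3m, scaled by TMM. It fell 3.01-fold (log2 fold change -1.59, SE 0.11, edgeR adjusted p = 3.41e-08), with an adjusted p of 0.0522 under robust quasi-likelihood. Of 10 cardiomyocyte markers, 2 had enough counts to be tested, Tnni3 and Nppa were at 0 in every library, and the summed level of the whole list was 44.0 to 54.2 CPM in the 4 libraries (CPM are counts put on a common scale of library size, here the library total). Of the 2 tested, Tnnt2 was called higher (log2 1.25) and Ttn lower (log2 -0.64). The 10 fibroblast markers summed to 7371 and 7287 CPM in siNT and 11815 and 11510 CPM in si3m, with 6 of 7 tested members higher, 1 lower, and Tcf21 at 0. The 6 smooth muscle markers, all tested, summed to 3263 and 3236 CPM in siNT and 3579 and 3590 CPM in si3m. They did not move together: 1 was called higher (Acta2, log2 0.35) and 1 lower (Tagln, log2 -0.23). The 8 leukocyte markers summed to 32.6 and 37.5 CPM in siNT and 16.1 and 16.6 CPM in si3m. Of the 2 tested, Adgre1 was called lower (24 and 34 counts in siNT, 4 and 0 in si3m) and Cd14 did not pass. The 7 endothelial markers stayed between 3.45 and 5.74 CPM, with Cdh5 and Emcn at 0. The part of these shifts in the results below was not tested. Here and in all results that follow, fewer cells of a type, less messenger RNA and less translation per messenger RNA cannot be told apart.

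The first question was which members of the adhesion machinery gained or lost footprints when eIF3m was reduced. The beta1 chain gene Itgb1 fell 1.85-fold, Itgav, Itga1 and Itga7 fell by less, and Itga11 and Itgb5 rose. Among the cytoplasmic proteins Ilk rose 2.45-fold, and Zyx, Vasp, both talin genes, Actn1, Parva and Vcl rose by less, whereas Flna, Lims1, Fermt2 and Actn4 fell. Of the 37 genes, 31 had enough counts for edgeR's quasi-likelihood test (Benjamini-Hochberg adjustment over all 12672 genes tested, threshold 0.05), and 18 of these 31 passed, 10 higher and 8 lower. Over all tested genes 27.8% passed, 14.0% higher and 13.9% lower. The tested members had more counts than most genes, with a median of 111 CPM against 22.2 CPM over all tested genes, and more counts make a change easier to call.

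**Figure D1:**
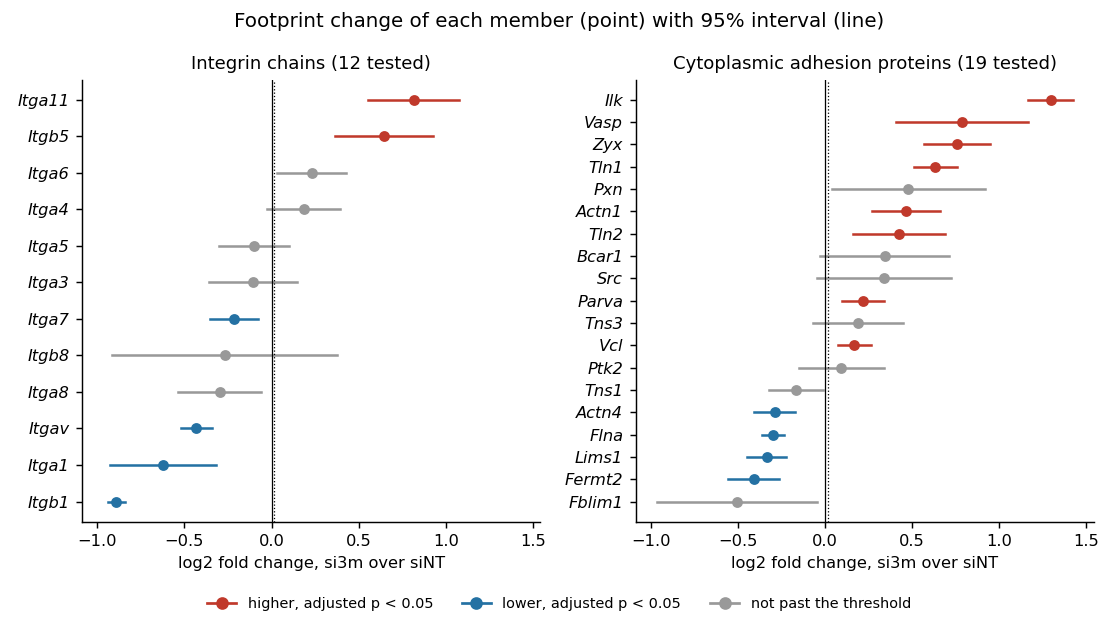
Log2 fold change of si3m over siNT (horizontal axis) for the 12 tested integrin chains and the 19 cytoplasmic adhesion proteins (rows); points are edgeR estimates, lines their 95% intervals, colours the call, and the dotted line the median of all tested genes (0.02). Itgb1 lies lowest of the chains at -0.89 and Ilk highest of the cytoplasmic proteins at 1.29.

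Set side by side, 2 of 12 tested integrin chains rose and 4 fell, with a median log2 fold change of -0.16. Of the 19 cytoplasmic proteins, all tested, 8 rose and 4 fell, with a median of 0.22, and the median over all 12672 tested genes was 0.02. With total count scaling in place of TMM (a scaling that centres the bulk of the genes), the cytoplasmic counts became 6 higher and 5 lower and the integrin counts 2 and 5. The same scaling moved the split over all genes from 1771 higher and 1757 lower to 1428 and 2217. In 28 of the 31 tested members the siNT and si3m values were fully apart, as they were in 63.9% of all tested genes. No test was made of the difference between the 2 classes, whose members were chosen with results of these data known.

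The beta1 chain, Itgb1, is the common partner of the collagen, laminin and many fibronectin receptors. Its footprint abundance, in CPM scaled by TMM as in all values below unless a share of the library is named, was 6253 and 6329 in siNT against 3421 and 3366 in si3m. The libraries of each group lay close together and the groups far apart. The fall was 1.85-fold (log2 -0.89, SE 0.022, edgeR adjusted p = 1.08e-13), from 6291 ± 53.6 to 3393 ± 38.5 CPM (SD, n = 2 each).

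The alphav chain, Itgav, pairs with several beta chains into receptors of vitronectin and fibronectin and of latent TGF-beta. It had 1098 and 1124 CPM in siNT and 830 and 819 CPM in si3m, both si3m libraries below both siNT libraries. It fell 1.35-fold (log2 -0.43, SE 0.041, edgeR adjusted p = 1.25e-06). Its partner Itgb5, the beta5 chain of a vitronectin receptor, went the other way, with 59.2 and 46.7 CPM in siNT and 83.4 and 82.8 CPM in si3m. The siNT libraries were the more spread here, yet neither reached the si3m level. The rise was 1.57-fold (log2 0.65, SE 0.13, edgeR adjusted p = 0.00165).

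The collagen receptor chains moved in opposite directions. Itga11, the alpha11 chain, which is known from fibroblasts and binds fibrillar collagen, had 52.3 and 65.3 CPM in siNT and 100.1 and 107 CPM in si3m. It rose 1.76-fold (log2 0.82, SE 0.12, edgeR adjusted p = 1.19e-04), the largest rise among the tested integrin chains. Itga1, the alpha1 chain, which prefers basement membrane collagen, had 59.2 and 57.4 CPM in siNT and 36.5 and 39.3 CPM in si3m. It fell 1.54-fold (log2 -0.62, SE 0.14, edgeR adjusted p = 0.00406). In the RefSeq annotation of the assembly GRCr8, Itga1 overlaps Pelo on the same strand. Pelo had 156 and 120 counts in siNT and 298 and 332 in si3m (log2 0.31, SE 0.20, edgeR adjusted p = 0.277). It was named after its value was seen. Reads of Itga1 and Pelo may be mixed where the genes overlap. Per 100 counts of Itga11 there were 113 and 87.9 counts of Itga1 in siNT and 36.5 and 36.7 in si3m. Of the 7 tested fibroblast markers, 6 were also higher in si3m and 1 (Pdgfrb) was lower. Over all tested genes 14.0% were higher and 13.9% lower. The part of these markers in the Itga11 rise was not tested. Itga2, the other collagen receptor chain listed, had 6 and 0 counts in siNT and 16 and 12 in si3m, too few to be tested.

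Among the laminin receptor chains, Itga7, the chain typical of muscle, had 284 and 258 CPM in siNT and 225 and 242 CPM in si3m. The groups did not overlap, and the fall was small, 1.16-fold (log2 -0.21, SE 0.065, edgeR adjusted p = 0.0213). The call did not hold without siNT replicate 1 (adjusted p = 0.194), without si3m replicate 1 (0.215) or in DESeq2 (0.0714). Itga6 had 103 and 115 CPM in siNT and 122 and 135 CPM in si3m (log2 0.23, 95% interval 0.03 to 0.43) and did not pass at an adjusted p of 0.0791. It passed without siNT replicate 2 (0.0218). Itga3 had 95.6 and 99.1 CPM in siNT and 80.0 and 101 CPM in si3m, so that the groups overlapped (log2 -0.11, interval -0.36 to 0.14), and without si3m replicate 1 its value turned to 0.072.

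The remaining tested chains did not pass. Itga5, the alpha chain of the classical fibronectin receptor, had 124 and 113 CPM in siNT and 117 and 104 CPM in si3m (log2 -0.10, 95% interval -0.30 to 0.10). Its groups overlapped, and the interval does not reach the change of its partner Itgb1. Itga8, another chain of receptors for the RGD motif of matrix proteins, had 81.1 and 83.3 CPM in siNT and 66.4 and 67.4 CPM in si3m (log2 -0.30, adjusted p = 0.0607 in edgeR). Both si3m libraries were below both siNT libraries, and it passed with total count scaling (0.0198). Itga4, whose receptors bind VCAM1 and fibronectin, had a log2 value of 0.19 (interval -0.02 to 0.39), and Itgb8, a partner of alphav, -0.27 (interval -0.91 to 0.38) on 40 to 70 counts per library.

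A further 5 chains were near the limit of detection, where a count of 0 still allows 3 fragments, equal to 6 deposited counts or 0.707 to 1.52 CPM. Itga9 reached no more than 6 counts. The leukocyte chains Itgb2 and Itgb7 had at most 6 and 2 per library. Of the leukocyte markers, Ptprc had at most 4 counts per library, Adgre1 at most 34, and Cd14 86 to 122. Itgb3, the beta3 chain of platelets and of other cells, had 4 counts in siNT replicate 1 and 0 in the other 3 libraries. Itgb4, the laminin receptor chain of epithelia, had 0 counts in both siNT libraries and 16 and 8 in si3m. Its si3m values, 1.88 and 1.24 CPM, lay near the limit of 1.49 and 1.52 CPM for a 0 in siNT. It was not tested at the usual filter, and with no low-count filter it was called higher (edgeR adjusted p = 0.0301). That fit also gave Eif3m an adjusted p of 5.52e-127, against 3.41e-08 with the filter. These limits cover counting error only.

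**Figure D2:**
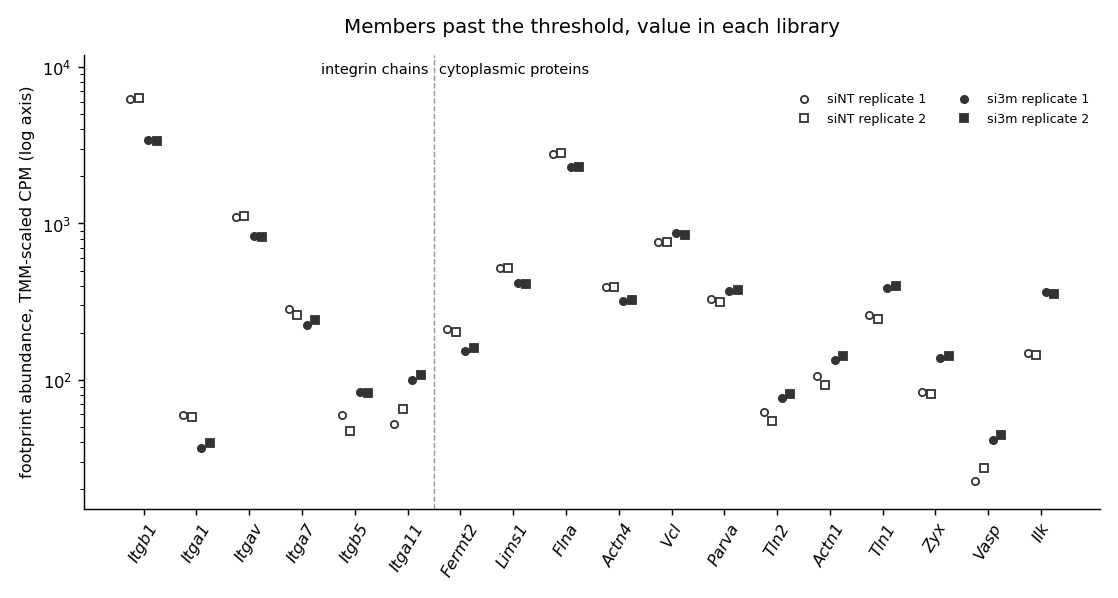
Footprint abundance in each library (vertical log axis, TMM-scaled CPM) for the 18 members past the threshold, integrin chains left of the dashed line; open symbols are siNT, filled symbols si3m, circles replicate 1 and squares replicate 2. Itgb1 falls from 6291 to 3393 CPM on average and Ilk climbs from 146 to 358 CPM.

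Ilk showed the largest change of the cytoplasmic proteins. Its product, integrin-linked kinase, is a pseudokinase that joins PINCH and parvin into a complex at the beta tail. Ilk had 147 and 145 CPM in siNT and 363 and 353 CPM in si3m. It rose 2.45-fold (log2 1.29, SE 0.060, edgeR adjusted p = 2.18e-10). The other members of the complex did not move with it as a unit. Lims1, which codes for PINCH1, had 521 and 522 CPM in siNT and 414 and 412 CPM in si3m and fell 1.26-fold (log2 -0.34, SE 0.052, edgeR adjusted p = 1.64e-04). Parva, alpha-parvin, had 330 and 314 CPM in siNT and 372 and 377 CPM in si3m, a rise of 1.16-fold (log2 0.22, SE 0.056, edgeR adjusted p = 0.00880) that did not pass with total count scaling (0.0880). In the RefSeq annotation of the assembly GRCr8, Ilk overlaps Taf10, a gene of the general transcription factor TFIID on the opposite strand. Taf10 had 26 and 20 counts in siNT and 136 and 112 in si3m (log2 1.52, SE 0.29, edgeR adjusted p = 0.00109), chosen after its value was seen. The strand setting of the counting is not given, so reads of the 2 genes may be mixed where they overlap.

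Both activators of the beta tail were measured, and they went apart. Tln1, the main talin outside muscle, had 260 and 245 CPM in siNT and 387 and 397 CPM in si3m, and rose 1.55-fold (log2 0.63, SE 0.058, edgeR adjusted p = 7.49e-07). Fermt2, which codes for kindlin-2, had 212 and 203 CPM in siNT and 153 and 159 CPM in si3m, and fell 1.33-fold (log2 -0.41, SE 0.069, edgeR adjusted p = 3.24e-04). For each gene the 2 groups did not overlap. Tln2, the talin enriched in striated muscle, had 62.2 and 54.9 CPM in siNT and 76.1 and 81.2 CPM in si3m (log2 0.42, SE 0.12, edgeR adjusted p = 0.0174). Its call was lost without siNT replicate 2 (adjusted p = 0.0712), without si3m replicate 2 (0.110), in DESeq2 (0.0647) and with fragments thinned to equal depth (0.0593).

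Tln1 overlaps Creb3, a transcription factor gene on the opposite strand in GRCr8, and Creb3 also rose (80 and 52 counts in siNT, 284 and 196 in si3m; log2 0.94, SE 0.23, edgeR adjusted p = 0.00536). Tln2 spans a microRNA gene with a row of its own, Mir190. Its mature product is shown because the row inside the talin gene went against its host. It is printed 5′ to 3′ with the seed, bases 2 to 8, in capitals (RefSeq, GRCr8, chr8:76732228-76732249, minus strand).
rno-miR-190a-5p: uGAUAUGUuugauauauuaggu
Mir190 had 20 counts in each siNT library and 8 in each si3m library (log2 -2.20, SE 0.61, edgeR adjusted p = 0.0140), and did not pass without any single library (adjusted p from 0.0616 to 0.153). A microRNA is not translated, so this row does not stand for translation of a protein. Creb3 and Mir190 were named after their values were seen.

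The proteins that tie integrins to actin also split. Flna, filamin A, which crosslinks actin and binds beta tails, had 2803 and 2846 CPM in siNT and 2283 and 2307 CPM in si3m. It fell 1.23-fold (log2 -0.30, SE 0.029, edgeR adjusted p = 1.26e-06), a small change with little spread. The alpha-actinin genes Actn1 and Actn4, whose products both crosslink actin outside the sarcomere, moved in opposite directions. Actn1 had 106 and 93.0 CPM in siNT and 133 and 142 CPM in si3m (log2 0.46, SE 0.092, edgeR adjusted p = 0.00138). Actn4 had 394 and 390 CPM in siNT and 317 and 325 CPM in si3m (log2 -0.29, SE 0.055, edgeR adjusted p = 9.25e-04). Neither gene's groups overlapped.

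Vcl, vinculin, which strengthens the talin to actin link under load, had 761 and 757 CPM in siNT and 863 and 843 CPM in si3m. The rise was 1.12-fold (log2 0.17, SE 0.044, edgeR adjusted p = 0.00954) and did not pass with total count scaling (log2 0.09, adjusted p = 0.182) or without si3m replicate 1 (0.0504). The tensin genes Tns1 and Tns3, whose products bind beta tails in mature fibrillar adhesions, did not pass in edgeR or DESeq2, Tns1 having an unadjusted p under 0.05. Tns1 had a log2 value of -0.17 (95% interval -0.32 to -0.01) and Tns3 of 0.19 (interval -0.07 to 0.45), and Tns1 passed with total count scaling (adjusted p = 0.0210). Tns2, from the list of further adhesion genes below and named after its value was seen, was called higher (log2 0.72, SE 0.23, edgeR adjusted p = 0.0280), a call lost under 6 of 14 alternatives (adjusted p up to 0.145, without siNT replicate 1).

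Zyxin and VASP, which act together in actin assembly at adhesions, rose by like amounts. Zyx had 84.1 and 80.8 CPM in siNT and 138 and 141 CPM in si3m, a 1.69-fold rise (log2 0.76, SE 0.090, edgeR adjusted p = 1.20e-05). Vasp had 22.4 and 27.4 CPM in siNT and 41.5 and 44.5 CPM in si3m, a 1.72-fold rise (log2 0.79, SE 0.18, edgeR adjusted p = 0.00360). Both si3m libraries exceeded both siNT libraries in each gene. Fblim1, which codes for migfilin, an adaptor between filamin and kindlin, had 36.8 and 25.4 CPM in siNT and 23.3 and 20.4 CPM in si3m. Its log2 value of -0.51 (95% interval -0.97 to -0.05) did not pass at an adjusted p of 0.0961 in edgeR, and passed without siNT replicate 2 (0.00539).

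The CArG box is the binding motif of serum response factor, a known regulator of many actin and adhesion genes. It was searched on both strands in the 250 bases before each RefSeq start, and the 1 member that held it, Fblim1, is shown. Only exact matches to CCWWWWWWGG, W being A or T, were counted. Boxes that depart from this pattern or lie elsewhere were not searched. Of the 37 members, 27 had such windows, 31 windows in all. The box was in 1 of these 31 (3.23%) and in 501 of 33469 windows of all genes (1.50%). The Fblim1 box lies 60 to 51 bases before the start and is in capitals (GRCr8, chr5:159196852-159196891, minus strand, 5′ to 3′).
Fblim1: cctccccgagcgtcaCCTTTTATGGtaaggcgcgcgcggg
The match is a description of these letters, and the remaining windows hold no such letters.

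Of the 4 signalling proteins none passed in edgeR or DESeq2, and 1 (Pxn) had an unadjusted p under 0.05. Ptk2, focal adhesion kinase, had 71.2 and 67.6 CPM in siNT and 74.7 and 73.5 CPM in si3m (log2 0.09, 95% interval -0.15 to 0.34). Src had a log2 value of 0.34 (interval -0.04 to 0.72), and Bcar1, the scaffold p130Cas, the same value of 0.34 (interval -0.03 to 0.71). Pxn, the scaffold paxillin, had 20.9 and 28.5 CPM in siNT and 30.6 and 38.4 CPM in si3m (log2 0.48, interval 0.04 to 0.92, adjusted p = 0.0981). All 4 had both si3m libraries above both siNT libraries, as had 32.6% of all tested genes. Bcar1 passed without siNT replicate 1 (adjusted p = 0.0206) and Pxn without siNT replicate 2 (0.0103). These genes had 84 to 634 counts per library.

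The integrin chains were next set against the cytoplasmic proteins inside each library, a ratio that needs no scaling between libraries. Per 100 counts of the 19 cytoplasmic genes there were 135 and 138 counts of the 18 integrin genes in siNT, and 87.0 and 86.3 in si3m. The ratio thus dropped from 137 ± 1.88 to 86.6 ± 0.500 (SD, n = 2 each), and it was lower in both si3m libraries. No p is given for it, because the ratio sums members chosen with results of these data known.

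Itgb1 and Flna weigh most in this ratio. Itgb1 held 75.2% of the integrin counts in each siNT library and 65.7% and 64.8% in si3m. Flna held 45.6% and 46.7% of the cytoplasmic counts in siNT and 38.2% and 38.3% in si3m. Such shares also grow with the length of a coding sequence, so they do not rank the genes. Without these 2 genes the ratio was 61.8 and 64.2 in siNT and 48.2 and 49.3 in si3m, a smaller drop in the same direction (chosen after seeing the data). The other 17 chains alone, per 100 counts of all 19 cytoplasmic genes, gave 33.6 and 34.2 in siNT and 29.8 and 30.4 in si3m. Among these 17, Itgav, which also fell, held the most counts (4412 and 4424 in siNT, 7047 and 5293 in si3m). The drop of this sum therefore need not be shared by the remaining chains.

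**Figure D3:**
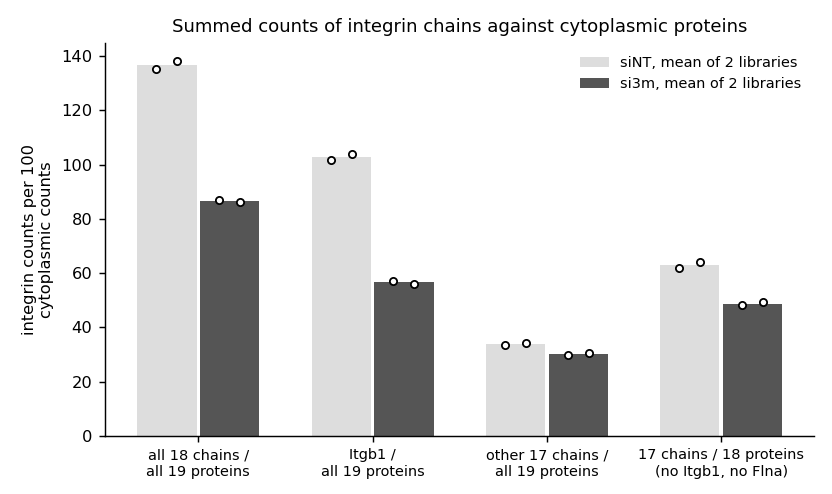
Summed integrin counts per 100 summed cytoplasmic counts (vertical axis) for 4 choices of genes (horizontal axis); bars are means of 2 libraries, light for siNT and dark for si3m, and points the libraries. With all members the bars stand at 137 and 86.6, and without Itgb1 and Flna at 63.0 and 48.7.

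As shares of the library, integrin chains took 0.851% and 0.863% of all counts in siNT and 0.509% and 0.499% in si3m. The cytoplasmic proteins took 0.629% and 0.625% in siNT, against 0.585% and 0.579% in si3m. Their summed share was thus slightly lower, although with TMM scaling 8 of these genes rose and 4, Flna among them, fell. A sum is weighted by the genes with most counts, and Flna held 45.6% and 46.7% of these counts in siNT. The share is not scaled by TMM, and with total count scaling 6 rose and 5 fell.

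Ratios between chains that pair with each other showed how uneven the change was within the receptors. Per 100 counts of Itgav there were 569 and 563 counts of Itgb1 in siNT and 412 and 411 in si3m. Per 100 counts of Itgb1 there were 1.98 and 1.79 counts of Itga5 in siNT and 3.42 and 3.09 in si3m, and 0.836 and 1.03 counts of Itga11 in siNT against 2.93 and 3.18 in si3m. Per 100 counts of Itgav there were 5.39 and 4.16 counts of Itgb5 in siNT and 10.0 and 10.1 in si3m. In each of these pairs the si3m libraries lay on the same side of both siNT libraries. The pairs were chosen with the values known and are a description without a test.

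The wider machinery was described with a list of 65 further integrin and adhesion genes, of which 52 were tested. Of these, 17 rose and 3 fell, with a median log2 of 0.21, beside 14.0% higher and 13.9% lower among all tested genes. With total count scaling the counts were 10 higher and 5 lower, and in DESeq2 11 were higher. Genes of this list had a median of 60.1 CPM.

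The 3 genes that fell were Crkl, Yes1 and Lpp. Crkl, an adaptor that binds p130Cas and paxillin, had 290 and 312 CPM in siNT and 168 and 177 CPM in si3m (log2 -0.80, SE 0.063, edgeR adjusted p = 1.30e-07). Its close relative Crk, with the same kind of domains, was called higher (log2 0.23, SE 0.074, adjusted p = 0.0277), a call lost under 4 of 14 alternatives (adjusted p up to 0.172, without si3m replicate 1). Yes1, a kinase of the Src family, had 418 and 433 CPM in siNT and 329 and 325 CPM in si3m (log2 -0.38, SE 0.055, adjusted p = 8.18e-05). Lpp, a LIM protein of the zyxin family, had 895 and 943 CPM in siNT and 756 and 762 CPM in si3m (log2 -0.28, SE 0.045, adjusted p = 2.72e-04), against the rise of Zyx. Crk was named after its value was seen.

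Of the genes that rose, 4 had the smallest p-values. Enah, the relative of VASP known as Mena, had 487 and 500 CPM in siNT and 651 and 676 CPM in si3m (log2 0.43, SE 0.050, edgeR adjusted p = 1.08e-05). Fhl2, a LIM protein that binds integrin tails, had 32.4 and 32.5 CPM in siNT and 66.7 and 56.6 CPM in si3m, a 1.90-fold rise (log2 0.93, SE 0.15, adjusted p = 2.82e-04). Sdc4, syndecan-4, a co-receptor of integrins at adhesions, had 183 and 178 CPM in siNT and 238 and 233 CPM in si3m (log2 0.38, SE 0.063, adjusted p = 2.84e-04). Rap1b, a small GTPase upstream of talin, rose 1.18-fold (log2 0.24, SE 0.048, adjusted p = 0.00127). In all 4 genes both si3m libraries were above both siNT libraries, as in 32.6% of all tested genes. The choice by smallest p favoured such a separation, so it adds no support.

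**Figure D4:**
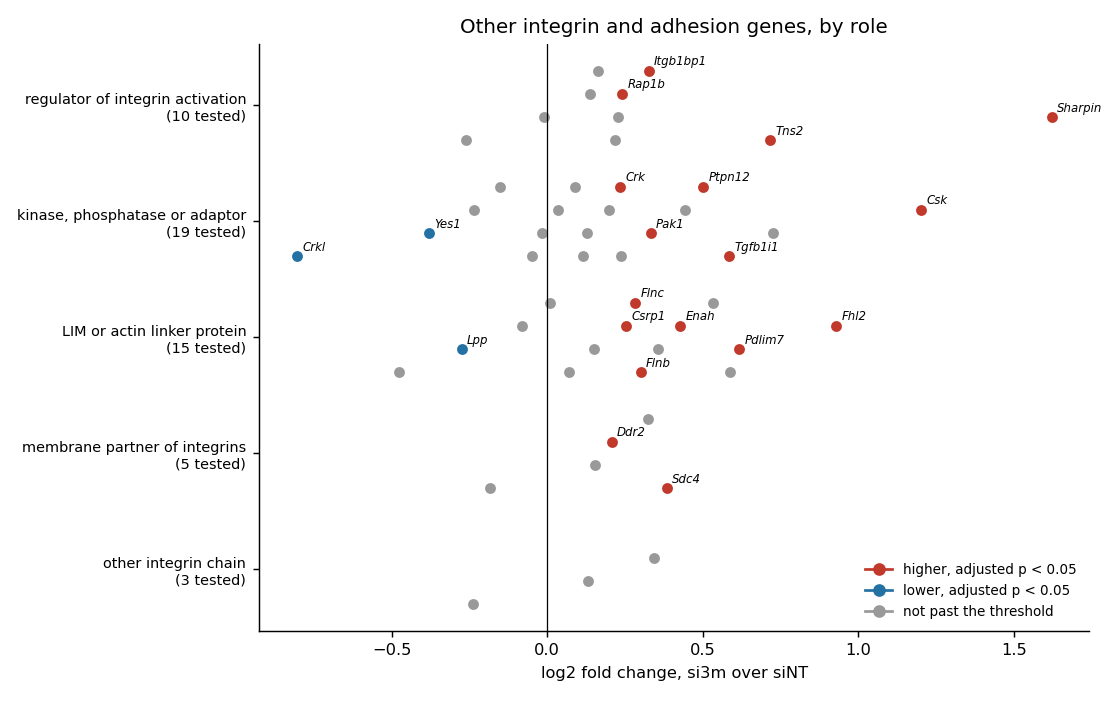
Log2 fold change of si3m over siNT (horizontal axis) for the 52 tested genes of the wider adhesion list, in rows by role; each point is a gene, spread vertically only for legibility, with names for genes past the threshold. The 3 lower genes are Crkl, Yes1 and Lpp, and 17 genes are higher.

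By role, the LIM and actin linker proteins had 6 of 15 tested genes higher and 1 lower, and the kinases, phosphatases and adaptors 5 of 19 higher and 2 lower. Of the regulators of integrin activation 4 of 10 were higher, and of the membrane partners 2 of 5, the others not passing. Over all tested genes 14.0% were higher and 13.9% lower, and no role was tested as a set. Of the 8 further integrin chains, 3 were tested and none passed in edgeR or DESeq2, with 0 at an unadjusted p under 0.05 and log2 values from -0.24 to 0.34. The leukocyte and platelet chains Itgal, Itgam, Itgad and Itga2b had no more than 6 counts in any library.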

How the data were processed

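The deposited files hold whole-number counts of reads per gene in 4 ribosome footprint libraries, without normalization. Per the submitters' processing notes, Trimmomatic 0.40, HISAT2 2.2.1, featureCounts, limma, DESeq2 and build rn6 were used; no annotation, strand setting or handling of multi-mapped reads was given in the sources used here. Between 94.9% and 97.3% of counts above 0 were even, so 2 counts were taken as 1 fragment for limits and for counting noise. Between replicates the median chi-square was 1.40 (siNT) and 1.48 (si3m) times counting noise, and each pair was kept as 2 samples.

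Tests used R 4.3.3 and edgeR 4.0.16 (minimum count of 10 in filterByExpr, TMM, glmQLFit and glmQLFTest, two-sided, Benjamini-Hochberg) after a check on simulated counts. SE is the log2 fold change divided by the square root of F. Alternatives were other scalings and filters, DESeq2 1.42.0, robust fitting, halved and thinned fragments, a replicate block and leaving out each library. The text names all 37 members, Eif3m, and up to 4 further adhesion genes in each direction by smallest p. Outside this rule, Crk, Tns2, Csk, Sharpin, Pelo, Taf10, Creb3 and Mir190 were named after their values were seen. Members and lists were chosen with earlier results of these data known. Overlapping genes, promoters and microRNA sequence come from RefSeq tables of GRCr8. All 37 members matched there, 24 overlap another annotated gene, and 11 overlap a gene with its own row. Itgb1 overlaps a protein-coding gene on the same strand that has no row, and Actn4 overlaps 2 protein-coding genes with rows. Reads may be mixed in these genes too. No coding lengths were at hand, so levels were not compared between genes.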

Additional observations from a re-analysis of the deposited data

How the results depend on the processing

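Of the 18 members past the threshold, 14 kept their direction and their call under all 14 alternatives, and 4 (Itga7, Tln2, Vcl, Parva) lost the call under some, with adjusted p ranging from 0.00231 to 0.215 for Itga7, 0.00430 to 0.110 for Tln2, 4.16e-04 to 0.182 for Vcl and 9.91e-04 to 0.0880 for Parva. Of the 13 others, 6 passed under some alternative, and Itga3 (log2 -0.11) ranged from -0.27 to 0.072 when a library was left out, turning positive without si3m replicate 1. Eif3m had an adjusted p of 0.0522 with robust quasi-likelihood (log2 -1.59). With no low-count filter 4 integrin chains were higher, Itga6 and Itgb4 being added. The further adhesion genes counted 10 higher and 5 lower with total count scaling, 11 higher in DESeq2, and 3 to 5 lower when a library was left out, 5 without siNT replicate 2. The cause was not tested. The change of the integrin to cytoplasmic ratio was -50.1 counts per 100, and -14.2 without Itgb1 and Flna. Whether the replicate numbers pair the libraries is not known. The correlation of same-numbered deviations was -0.02, and as these deviations include counting noise it cannot settle the question. With the replicate block 1851 genes were higher and 1843 lower. The counts of integrin chains (2 and 4) and cytoplasmic proteins (8 and 4) were as without it. Itgb8, with the fewest counts of the tested members, had the widest interval.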

Other observations

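Csk and Sharpin had the highest log2 fold changes of the 52 tested further adhesion genes, though not the smallest p, and were named after their values were seen. Csk, the kinase that switches Src family kinases off, had 36 and 44 counts in siNT and 214 and 136 in si3m (log2 1.20, SE 0.25, edgeR adjusted p = 0.00202). Sharpin, known as an inhibitor of integrin activation, had 12 and 14 counts in siNT and 80 and 70 in si3m (log2 1.62, SE 0.38, edgeR adjusted p = 0.00509). Both kept their call under all 14 alternatives, with adjusted p up to 0.0199 for Csk and 0.0457 for Sharpin.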
